A study of Mus musculus with 2 samples.

Results

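Protocadherins were examined in MALAT1-knockdown and control C3H10 cells by taking every gene of the counts table whose symbol begins with Pcdh. This gave 70 of the 46095 genes in the table. They fell into 14 Pcdha, 22 Pcdhb and 22 Pcdhg genes, which make up the clustered protocadherins, and 12 other, nonclustered genes. Of the 70 genes, 49 reached 10 counts over the pair of libraries and entered the test, against 17356 genes of the whole table. The remaining 21 comprised 13 genes at 0 counts in both libraries and 8 with a few counts.

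C3H10 is a mouse mesenchymal cell line that can be driven to form adipocytes, and the labels describe it as a fibroblast precursor with adipogenic ability and give the strain as C57BL/6. MALAT1 is a nuclear long noncoding RNA. Control cells received a negative control antisense oligonucleotide (ASO) and MALAT1-knockdown cells an ASO against MALAT1, both at 100 nM with RNAiMAX for 8 h, and both were then grown to confluence and induced to differentiate. Induction medium held IBMX, dexamethasone, troglitazone and insulin for 2 days and was followed by maintenance medium with insulin. There was 1 library per group, made from rRNA-depleted total RNA, so no difference below has a replicate check, and the p-values and intervals compare these libraries, not the conditions.

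Protocadherins are the largest family within the cadherin superfamily of calcium-dependent adhesion proteins. In the clustered genes, each variable exon has its own promoter and encodes a complete ectodomain, and in the alpha and gamma clusters it is spliced to constant exons that supply a common cytoplasmic tail, whereas each beta gene carries a tail of its own. Neurons choose among these promoters, with CTCF and cohesin joining the chosen promoter to distant enhancers, and display different combinations as a surface identity for self-recognition. The nonclustered protocadherins are ordinary genes scattered over the genome. The delta1 and delta2 groups of these differ in the motifs of their cytoplasmic tails, and they are best known for cell sorting and cell movement in the embryo and the developing brain.

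Among the nonclustered genes, Pcdh7, Pcdh18 and Pcdh19 carried most of the counts, and their promoters are shown because these well-counted members were all higher in MALAT1-knockdown cells. The sequences are RefSeq promoter windows of GRCm38.p6, from 250 bases before to 50 bases after an annotated start, written 5′ to 3′ on the gene's strand. The windows lie at chr5:57717831-57718130 on the plus strand for Pcdh7, at chr3:49757267-49757566 on the minus strand for Pcdh18 and at chrX:133688944-133689243 on the minus strand for Pcdh19. The Pcdh7 window lies inside the span of the gene, which begins at base 57716145. It therefore surrounds an annotated start downstream of the gene's first base. Capitals mark matches, on either strand, to the GC box letters GGGCGG and the CCAAT box.
Pcdh7: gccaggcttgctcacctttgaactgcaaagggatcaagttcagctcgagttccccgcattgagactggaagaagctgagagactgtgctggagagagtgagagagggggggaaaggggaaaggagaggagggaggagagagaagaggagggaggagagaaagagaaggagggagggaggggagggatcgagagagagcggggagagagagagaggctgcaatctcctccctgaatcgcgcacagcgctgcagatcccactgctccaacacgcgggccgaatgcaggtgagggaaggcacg
Pcdh18: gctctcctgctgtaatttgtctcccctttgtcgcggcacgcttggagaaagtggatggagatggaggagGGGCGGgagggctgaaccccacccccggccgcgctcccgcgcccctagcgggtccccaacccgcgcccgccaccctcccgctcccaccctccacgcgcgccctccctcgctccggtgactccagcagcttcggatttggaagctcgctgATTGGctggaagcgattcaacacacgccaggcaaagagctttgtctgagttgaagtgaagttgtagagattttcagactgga
Pcdh19: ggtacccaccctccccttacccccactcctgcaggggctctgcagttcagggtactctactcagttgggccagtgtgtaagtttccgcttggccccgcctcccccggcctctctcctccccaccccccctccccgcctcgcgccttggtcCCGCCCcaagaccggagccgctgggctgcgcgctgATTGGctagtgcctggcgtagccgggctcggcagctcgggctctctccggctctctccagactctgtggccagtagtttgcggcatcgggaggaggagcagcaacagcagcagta
The windows of Pcdh18 and Pcdh19 each held 1 GC box and 1 CCAAT box (the CCAAT box as ATTGG in both). The window of Pcdh7, at a downstream start, held neither, and the bases before the gene's first base were not examined. The same letters occurred in 35.7% (GGGCGG) and 37.4% (CCAAT) of the 32851 promoter windows of this length. The TATA letters TATAAA (13.6% of all windows) and the E-box CACGTG (7.15%) were in none of the 3. CpG dinucleotides numbered 11 in the window of Pcdh7, 23 in that of Pcdh18 and 18 in that of Pcdh19, beside a median of 7 over all promoters. GC content was 59.3%, 63.0% and 67.7% respectively, beside a median of 52.7%. These matches describe the letters of the windows only.

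The libraries held 58147539 counts (control) and 61653549 counts (MALAT1 knockdown), over 21111 and 21143 genes with counts. Malat1 itself stood at 170402 counts without and 45396 counts with the MALAT1 ASO, giving a log2 fold change of -2.01 (95% interval -2.03 to -1.9999). Fold changes throughout are knockdown over control after TMM scaling of library sizes. The log2 fold changes of single genes carry a prior count of 0.5, and those of summed counts and plain fold ratios carry none. Intervals are exact (Clopper-Pearson) and cover counting error only, since 1 library per group gives no spread between cultures. They take reads as independent, and are too narrow where reads are not independent molecules. Over all genes tested the median log2 fold change was -0.0031, with quartiles of -0.23 and 0.18. At this depth 3 counts, the limit that a count of 0 allows, correspond to 0.0520 counts per 1000000 counts (CPM) in control and 0.0483 CPM in MALAT1-knockdown cells.

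The labelled cell type was checked against marker lists, and the markers moved with the knockdown. Over all genes tested, 2.18% were called higher and 4.09% lower by the rule given below. Among those with a mean under 100 counts, 17.1% were called in either direction. Of 9 tested adipocyte markers, 7 were called lower, among them Retn (1592 to 431 counts) and Gpd1 (30396 to 8692 counts), and the summed level of the list was 5685 CPM in control and 2234 CPM in MALAT1-knockdown cells. Of 10 tested fibroblast or preadipocyte markers, 8 had higher values and 1, Cd34, was called higher (19 to 69 counts). The other 2, named after their values were seen, were lower and not called: Dcn had 2247 and 1315 counts (log2 fold change -0.88) and Lum had 1246 and 674 counts (-0.99). The summed level of the list was 11968 and 13831 CPM, and Dlk1 was at 0 in both. Neural markers summed to 23.9 and 36.3 CPM, of which Map2, not called and named after its values were seen, made up 21.5 and 33.4 CPM. Of the 7 tested markers, 3 were called higher, including Nes (3 to 24 counts) and Tubb3 (6 to 24 counts). Nes and Tubb3 reached 10 summed counts only through the knockdown library. Gfap (85 and 78 counts) was not called, and Rbfox3, Stmn2 and Sox2 had 1 count at most, all 4 named after their values were seen. Endothelial markers summed to 1.06 and 1.22 CPM, with 1 of 3 tested markers, Vwf, called higher (12 to 30 counts). Pecam1 (26 and 25 counts) and Tek (23 and 19 counts) were not called, and the untested Cdh5, Kdr and Tie1 had 1 count at most. In bulk RNA, fewer cells of a type and less RNA per cell cannot be told apart, and the part of these markers in the protocadherin values below was not tested.

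**Figure D1:**
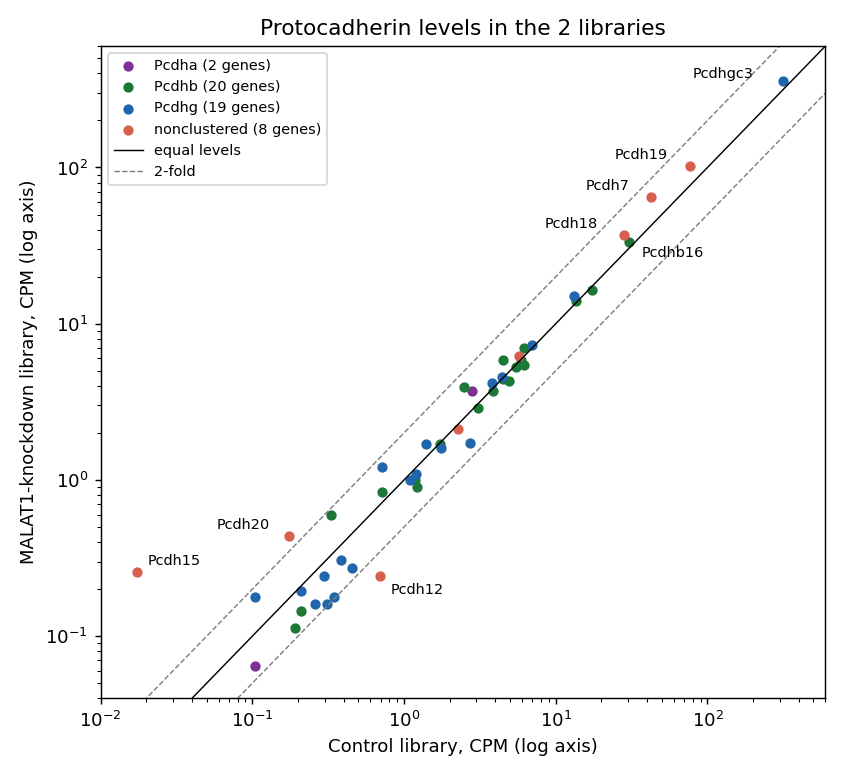
Level of each of the 49 tested protocadherins in the control library (x axis, CPM, log axis) and the MALAT1-knockdown library (y axis, CPM, log axis), coloured by group, with lines for equal levels and 2-fold differences. Most genes lie close to the line of equal levels, Pcdh7, Pcdh18 and Pcdh19 lie above it at high levels, and the genes beyond the 2-fold lines by test (Pcdh12, Pcdh15 and Pcdh20) are all below 1 CPM.

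Protocadherins as a whole had 36190 counts in control and 45416 in MALAT1-knockdown cells, a summed log2 fold change of 0.22 (0.20 to 0.24), while the median over the 49 tested genes was -0.03. Of these 49 genes, 22 had values above 0 and 27 below. A gene was called when its adjusted p from the two-sided exact binomial test (Benjamini-Hochberg over all 17356 genes) was under 0.05 and its level differed 2-fold or more. By this rule 2 protocadherins were called higher, beside 2.18% of all genes tested, and 1 was called lower, beside 4.09%. These 3 genes were also the only protocadherins past 2-fold without a test (2 higher, 1 lower), beside 3.83% of all genes for higher and 6.02% for lower values. With the adjusted p alone, 12 were higher, beside 24.2% of all genes, and 2 were lower, beside 23.8%. Set against these shares, 12 of 49 is near the figure for higher values and 2 of 49 is below that for lower values. The shares are not matched for depth, on which a counting test depends. Of the 49 genes, 22 averaged under 100 counts, against 5217 of the 17356 genes tested. No reading about the members is therefore drawn from either count. The plot of every gene's fold change shows the 4 groups in turn.

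**Figure D2:**
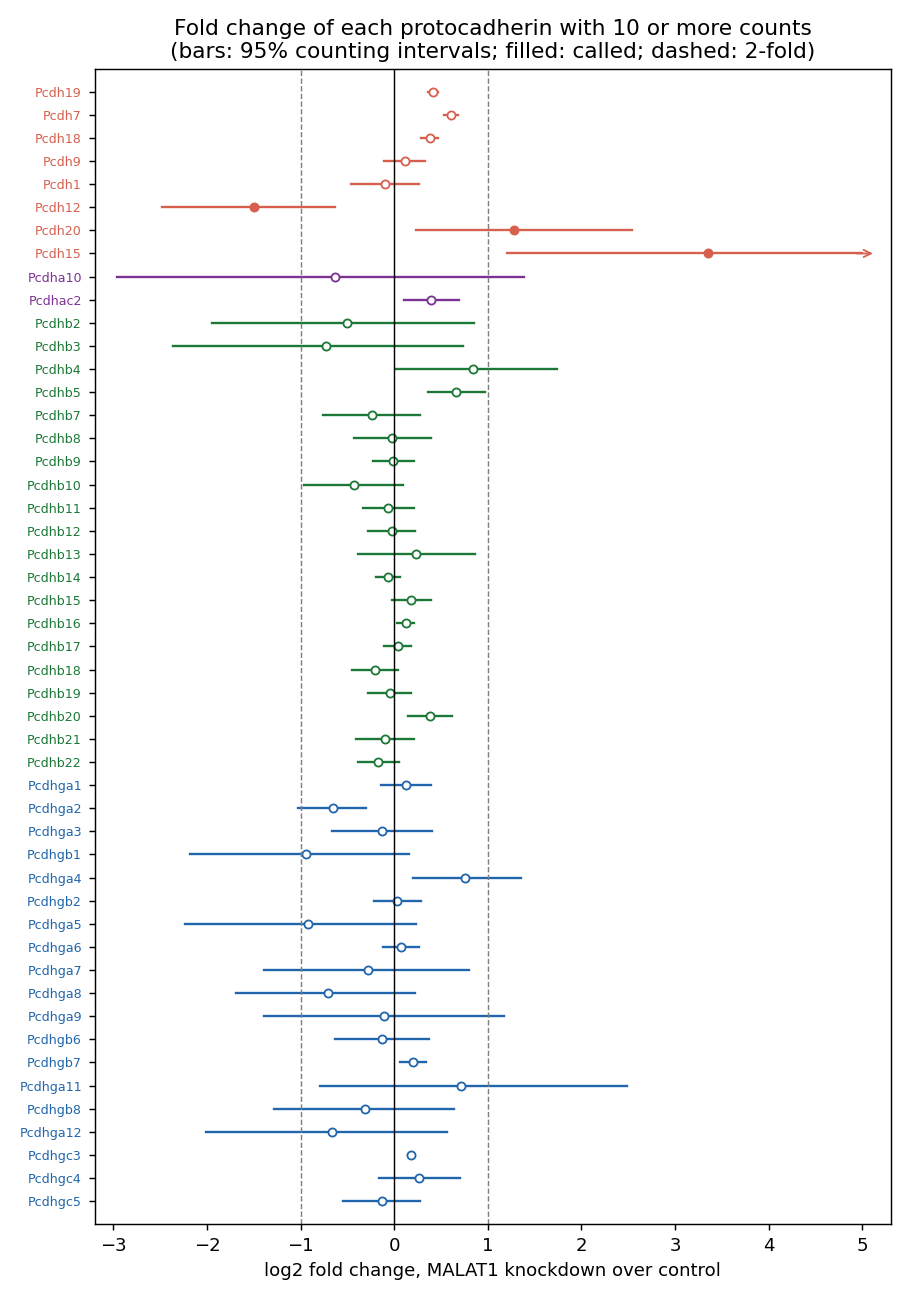
Log2 fold change (x axis, MALAT1 knockdown over control) of each tested protocadherin (y axis), coloured by group, with 95% counting intervals as bars, filled points for called genes and dashed lines at 2-fold. The 3 filled points are Pcdh12, Pcdh20 and Pcdh15 among the nonclustered genes, and the intervals of 34 of the 49 genes hold 0.

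The nonclustered protocadherins had the largest summed difference of the 4 groups, with 9026 counts in control and 13231 in MALAT1-knockdown cells and a log2 fold change of 0.45 (0.41 to 0.48). Their median over 8 tested genes was 0.40. Relative to the Pcdhb genes their summed counts were higher by a log2 ratio of 0.40 (0.34 to 0.46), and relative to the Pcdhg genes by 0.28 (0.23 to 0.33), ratios that do not depend on library scaling. The groups follow the gene symbols, but these comparisons between groups were decided on after the values were seen, as were those among gamma, beta and alpha genes. Adjusted over the 10 pairs compared, the two-sided Fisher's exact test gave p of 3.46e-36 and 5.55e-31. Against the Pcdha genes, whose counts were few, the log2 ratio was 0.09 (-0.21 to 0.38; adjusted p = 0.578, exact). Nonclustered genes accordingly took 24.9% (24.5% to 25.4%) of all protocadherin counts in control and 29.1% (28.7% to 29.6%) in MALAT1-knockdown cells.

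Pcdh7, a delta1 protocadherin whose cytoplasmic tail can bind protein phosphatase 1 alpha, had 2451 counts (42.5 CPM) in control and 4017 counts (64.7 CPM) in MALAT1-knockdown cells. The log2 fold change was 0.61 (0.53 to 0.68; adjusted p = 2.01e-60, exact binomial test), a 1.52-fold difference that did not reach the 2-fold threshold. Of the 8251 genes averaging 1000 counts or more, 1.21% had a larger log2 fold change. The gene spans bases 57716145 to 58133236 of chromosome 5. An annotated gene on the opposite strand that overlaps its exons, 4932441J04Rik, had 9 and 16 counts.

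Pcdh19, a delta2 protocadherin encoded on the X chromosome and linked in people to an epilepsy, was the most counted nonclustered member. It had 4427 counts (76.7 CPM) in control and 6354 counts (102 CPM) in MALAT1-knockdown cells, giving a log2 fold change of 0.41 (0.36 to 0.47; adjusted p = 5.09e-48, exact binomial test). Pcdh18, another delta2 protocadherin, had 1634 counts (28.3 CPM) in control and 2285 counts (36.8 CPM) in MALAT1-knockdown cells, giving a log2 fold change of 0.38 (0.28 to 0.47; adjusted p = 5.02e-15, exact binomial test). Both were higher in the knockdown library and both stayed under 2-fold. Of the same well-counted genes, 3.31% exceeded Pcdh19 and 4.04% exceeded Pcdh18 in log2 fold change. These 3 genes were themselves picked by their values, so the ratios between them are given without p-values. Their pairs are among the 10 pairs over which the group comparisons were adjusted. Pcdh7 exceeded Pcdh19 by a log2 ratio of 0.19 (0.10 to 0.28) and Pcdh18 by 0.23 (0.11 to 0.35), and Pcdh19 and Pcdh18 differed by 0.04 (-0.07 to 0.15), an interval that holds 0.

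Together these 3 genes held 94.3% (93.8% to 94.8%) of nonclustered counts in control and 95.7% (95.3% to 96.0%) in MALAT1-knockdown cells. Without them the remaining 9 nonclustered genes had 514 and 575 counts, giving a log2 fold change of 0.06 (-0.12 to 0.23). The nonclustered difference thus rested on Pcdh7, Pcdh18 and Pcdh19. By structural group, delta1 genes summed to 2911 and 4533 counts (log2 fold change 0.53, 0.46 to 0.60), of which Pcdh7 supplied 2451 and 4017. The delta2 genes summed to 6064 and 8640 counts (0.40, 0.36 to 0.45), from Pcdh19 and Pcdh18. These 3 genes were higher where the adipocyte markers were lower and 8 of the 10 fibroblast or preadipocyte markers were higher, and whether the makeup of the cells accounts for it was not tested.

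The 3 called protocadherins were nonclustered genes at low counts. Pcdh12, a protocadherin first known from endothelial cells, fell from 40 counts in control to 15 in MALAT1-knockdown cells, giving a log2 fold change of -1.49 (-2.48 to -0.63; adjusted p = 0.00118, exact binomial test). Of the 3 tested endothelial markers, Pecam1 (26 and 25 counts) and Tek (23 and 19 counts) were not called, and Vwf (12 and 30 counts) was called higher, opposite to Pcdh12. Pcdh20 rose from 10 to 27 counts, giving a log2 fold change of 1.28 (0.23 to 2.54; adjusted p = 0.0320, exact binomial test). Pcdh15, a component of the tip links of inner-ear hair cells, rose from 1 to 16 counts, a 14.9-fold ratio whose counting interval ran from 2.31 to 623 (adjusted p = 0.00146, exact binomial test). Pcdh15 reached 10 summed counts only through the knockdown library, and was not tested when 10 counts in each library were required. All 3 called genes had levels under 1 CPM in both libraries. None of the 3 was called with counts divided by 4 or with edgeR's exact test at an assumed variation (BCV) of 0.2 between cultures, and Pcdh20 was not called at 0.1 either (adjusted p = 0.176). Among the 5217 tested genes of the table with a mean under 100 counts, 17.1% were called in either direction, and among the 22 protocadherins of that depth 3 were.

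Of the other nonclustered members, Pcdh9 had 330 and 384 counts (log2 fold change 0.11, -0.10 to 0.33) and Pcdh1 had 130 and 131 counts (-0.10, -0.46 to 0.27), both delta1 genes whose intervals hold 0. Pcdh10 had 3 and 1 counts and Pcdh11x 0 and 1. Pcdh8 and Pcdh17 were at 0 in both libraries. These last 4 were not tested, and a difference in them was not detectable at this depth.

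**Figure D3:**
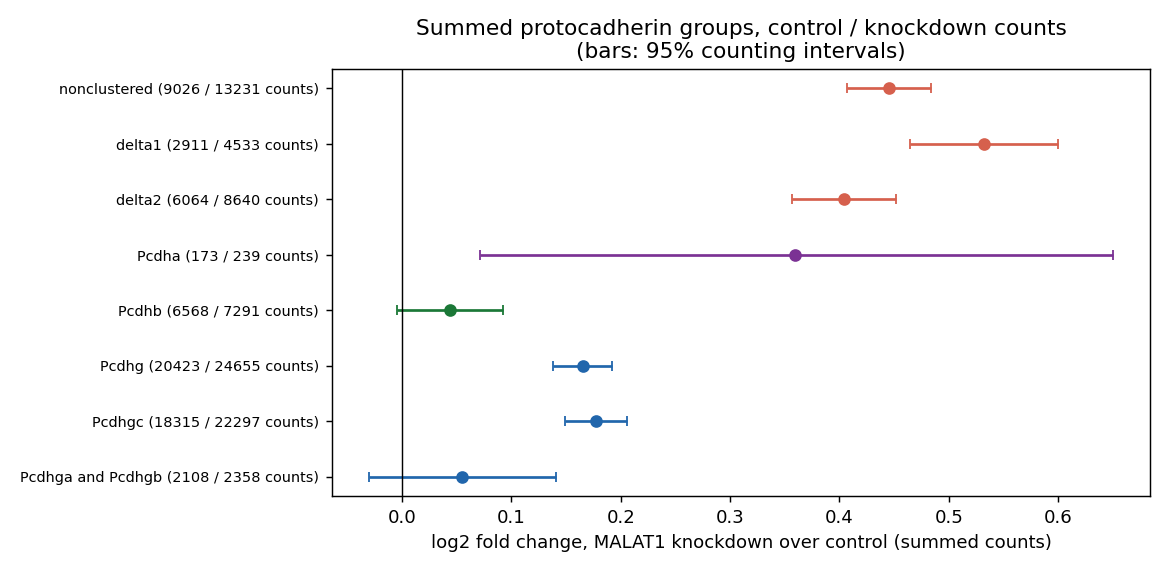
Log2 fold change of the summed counts (x axis, MALAT1 knockdown over control) of each group and subgroup of protocadherins (y axis, with control and knockdown counts), with 95% counting intervals as bars. Nonclustered genes lie at 0.45, Pcdhg at 0.17 and Pcdhb at 0.04, with Pcdha at 0.36 and a wide interval.

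The Pcdhg genes supplied most protocadherin counts, with 20423 in control and 24655 in MALAT1-knockdown cells and a summed log2 fold change of 0.17 (0.14 to 0.19). Pcdhgc3, 1 of the 3 C-type gamma isoforms, which are generally expressed more evenly over cells than the others, accounted for 88.8% (88.3% to 89.2%) of gamma counts in control and 89.6% (89.2% to 89.99%) in MALAT1-knockdown cells. It had 18133 counts (314 CPM) and 22093 counts (356 CPM), giving a log2 fold change of 0.18 (0.15 to 0.21; adjusted p = 8.11e-34, exact binomial test). This gene alone held 50.1% (49.6% to 50.6%) of all protocadherin counts in control and 48.6% (48.2% to 49.1%) in MALAT1-knockdown cells. Of the 8251 well-counted genes, 16.7% had a larger log2 fold change. Pcdhgc3 thus had many counts and a small difference. With edgeR's exact test at an assumed variation (BCV) of 0.1 between cultures, its adjusted p was 0.864. An annotated gene on the opposite strand, BC037039, overlaps its exons and was not among the genes counted. The same holds for Gm26672, opposite Pcdhgb7. Whether reads of these opposite-strand genes were counted for Pcdhgc3 or Pcdhgb7 is not known.

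Without Pcdhgc3 the 21 other gamma genes summed to 2290 and 2562 counts, giving a log2 fold change of 0.06 (-0.03 to 0.14), so the summed gamma difference was lost. The A-type genes (Pcdhga) summed to 979 and 1032 counts (-0.03, -0.16 to 0.10). The B-type genes (Pcdhgb) summed to 1129 and 1326 counts (0.13, 0.01 to 0.24), and the C-type genes to 18315 and 22297 counts (0.18, 0.15 to 0.21). The median over the 19 tested gamma genes was -0.13, of opposite sign to the sum, with 8 values above 0 and 11 below.

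Within the gamma cluster, 3 of the 19 tested genes were higher and 1 was lower by adjusted p alone, and none was called. Neither count exceeded the share over all genes (24.2% higher, 23.8% lower), which is not matched for depth, so the values below describe single genes. Pcdhgb7 had 758 and 939 counts (log2 fold change 0.20, 0.06 to 0.34; adjusted p = 0.0109, exact binomial test). Pcdhga4 had 41 and 75 counts (0.76, 0.20 to 1.35; adjusted p = 0.0173, exact binomial test), and Pcdhga2 had 157 and 107 counts (-0.66, -1.03 to -0.30; adjusted p = 0.000939, exact binomial test). These isoforms share constant exons and differ in the variable exon, and isoforms of 1 cluster thus had values of opposite sign. Pcdhga6, with 402 and 455 counts, Pcdhgb2, with 257 and 283 counts, and Pcdhga1, with 220 and 258 counts, had intervals that hold 0. The C-type genes Pcdhgc4 (81 and 105 counts) and Pcdhgc5 (101 and 99 counts) did too. The lowest gamma genes were Pcdhga10 (2 and 0 counts), Pcdhgb4 (0 and 3) and Pcdhgb5 (3 and 3), which were not tested.

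How reads of the shared exons were counted bears on these values. In the GENCODE M21 annotation of GRCm38, a median of 43.6% (range 25.9% to 62.7%) of the 100-base exonic windows of a gamma gene were found in another protocadherin, and 55.1% (47.7% to 56.7%) for an alpha gene, against 0.21% (0 to 7.73%) for a beta gene and 0 for every nonclustered gene. The gamma genes with 0 to 3 counts lie in the same cluster as Pcdhgc3, so reads of the shared exons were not added to every gamma gene. Whether they were discarded or given to some isoforms is not given in the sources used here. The isoform values, and the split among gamma and alpha genes in particular, are uncertain for this reason. Annotated genes that join the first exon of an alpha gene to the end of the gamma cluster (Gm37013, Gm38666 and Gm38667) had 0 counts in both libraries.

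**Figure D4:**
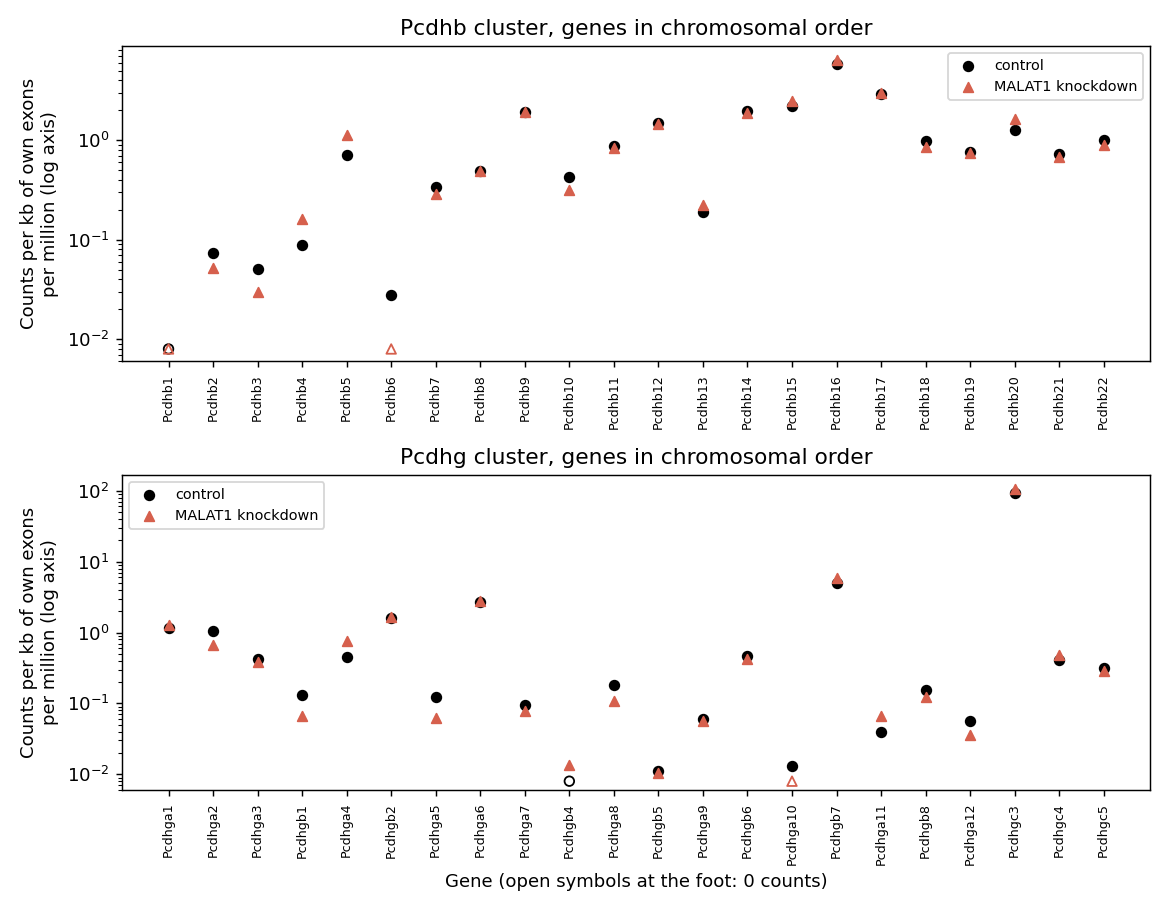
CPM per kilobase of own exons (y axis, log axis) for each Pcdhb gene (top) and Pcdhg gene (bottom) in chromosomal order (x axis), with circles for control, triangles for MALAT1 knockdown and open symbols at the foot for 0 counts. In the beta cluster Pcdhb16 is highest (5.82 and 6.34) and in the gamma cluster Pcdhgc3 (92.97 and 105.2), and the symbols of both libraries overlap for most genes.

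The Pcdhb genes were the group with the smallest summed difference, with 6568 counts in control and 7291 in MALAT1-knockdown cells and a log2 fold change of 0.04 (-0.004 to 0.09). The interval holds 0 with TMM scaling and lies just above 0 with each of 3 other scalings (0.05 to 0.07). Gamma genes as a sum exceeded beta genes by a log2 ratio of 0.12 (0.07 to 0.18; adjusted p = 5.72e-05, Fisher's exact test). Of 20 tested beta genes 7 had values above 0 and 13 below, with a median of -0.04 and a range of -0.72 (Pcdhb3) to 0.84 (Pcdhb4). None was called, and 16 of the 20 intervals hold 0.

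By adjusted p alone 3 of the 20 tested beta genes were higher and none lower. This does not exceed the 24.2% and 23.8% of all genes, shares that are not matched for depth. Pcdhb5 had 144 and 246 counts (log2 fold change 0.66, 0.36 to 0.97; adjusted p = 4.04e-05, exact binomial test), the largest of the 3 differences. Pcdhb20 had 258 and 363 counts (0.39, 0.15 to 0.62; adjusted p = 0.00316, exact binomial test). Pcdhb16, the most counted beta gene with 26.7% (25.7% to 27.8%) of beta counts in control and 28.2% (27.2% to 29.3%) in MALAT1-knockdown cells, had 1756 and 2058 counts (0.12, 0.03 to 0.22; adjusted p = 0.0218, exact binomial test). Pcdhb4 had 19 and 37 counts, with an adjusted p of 0.0851 (exact binomial test). Pcdhb4 and Pcdhb5 are neighbours in the cluster, and both intervals lie above 0.

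The next most counted beta genes stayed close to equal levels. Pcdhb14 had 993 and 1018 counts (log2 fold change -0.07, -0.20 to 0.06), and Pcdhb17 had 782 and 863 counts (0.04, -0.11 to 0.18). Pcdhb15 (356 and 435 counts), Pcdhb22 (354 and 339), Pcdhb9 (341 and 365) and Pcdhb19 (316 and 329) had intervals that hold 0. Counts were uneven along the cluster. Pcdhb9 to Pcdhb22 held 94.5% (94.0% to 95.1%) of beta counts in control and 93.6% (93.02% to 94.2%) in MALAT1-knockdown cells, and Pcdhb1 to Pcdhb8 the rest. Of the latter, Pcdhb1 was at 0 in both libraries, Pcdhb6 had 6 and 0 counts and was not tested, and Pcdhb2 (12 and 9) and Pcdhb3 (11 and 7) were barely counted.

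The Pcdha genes were nearly silent in both libraries. Of 14 genes 10 were at 0 counts in both, and the group summed to 173 and 239 counts. Pcdhac2, 1 of the 2 C-type alpha isoforms, held 94.2% (89.6% to 97.2%) of these counts in control and 96.7% (93.5% to 98.5%) in MALAT1-knockdown cells. It had 163 and 231 counts (2.82 and 3.72 CPM), giving a log2 fold change of 0.40 (0.10 to 0.69; adjusted p = 0.0190, exact binomial test), and was not called. The summed log2 fold change of 0.36 (0.07 to 0.65) is that of Pcdhac2. The other genes with counts were Pcdha10 (6 and 4), Pcdha9 (2 and 4) and Pcdha12 (2 and 0), and without Pcdhac2 the sum turned to -0.43 (-1.97 to 1.06). Against beta genes the alpha sum was higher by 0.32 (0.02 to 0.61; adjusted p = 0.0447, Fisher's exact test), and against gamma genes by 0.19 (-0.10 to 0.49; adjusted p = 0.225, Fisher's exact test).

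Levels were compared between genes as CPM per kilobase of the exons that no other protocadherin shares. Pcdhgc3 was highest in both libraries, at 92.97 in control and 105.2 in MALAT1-knockdown cells, and its value is an upper reading to the extent that reads of the shared exons were counted for it. Pcdh19 came next, at 7.33 and 9.77. Below it in control cells stood Pcdhb16 (5.82), Pcdh18 (5.28), Pcdhgb7 (5.06) and Pcdh7 (4.01). In MALAT1-knockdown cells the order of these genes was Pcdh18 (6.85), Pcdhb16 (6.34), Pcdh7 (6.10) and Pcdhgb7 (5.83). Pcdhb17 (2.91 and 2.98), Pcdhga6 (2.67 and 2.80) and Pcdhb15 (2.20 and 2.50) followed. With 1 library per group no spread over samples stands behind this order. The highest of these levels belonged to gamma, beta and nonclustered genes.

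The clusters occupy adjacent stretches of chromosome 18 in GRCm38, by RefSeq from base 36930285 for Pcdha1 to base 37841873 for Pcdhgc5. Of 53 genes of the table within 500000 bases of them that are not protocadherins, 27 were tested. None was called, beside 2.18% of all genes called higher and 4.09% called lower, so with 27 genes this says little about the region. Their median log2 fold change was -0.03, with a range of -0.67 to 0.46. Some had an adjusted p under 0.05 by the exact binomial test in each direction, such as Cd14 (0.46) and Ndufa2 (-0.45), picked by their values. Taf7, a general transcription factor subunit whose gene lies between the beta and gamma clusters, had 420 and 436 counts (log2 fold change -0.05, -0.25 to 0.14). Diaph1, an actin regulator immediately beyond the gamma cluster, had 4886 and 6013 counts (0.19, 0.14 to 0.25), close to the value of Pcdhgc3. The nonclustered genes Pcdh1 and Pcdh12 lie within the same distance, and Pcdh12 was called lower. Taf7 and Diaph1 were picked out by position after the values were seen.

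Regulators and partners of protocadherins, other genes of the cadherin superfamily and cadherin junction genes were taken from 5 lists. In these 2 genes were called, Cyfip2 and Clstn3. The shares of all genes given beside each list are not matched for depth, on which a counting test depends. No reading about the lists is drawn from these counts. Of 19 regulators of protocadherin promoters and chromatin, none was called, with 8 higher and 3 lower by adjusted p alone, beside 24.2% and 23.8% of all genes, and a median log2 fold change of 0.07. The most counted were the cohesin subunits Rad21 (13640 and 15609 counts, 0.09) and Smc1a (11247 and 13529 counts, 0.16). Picked after their values were seen, Smchd1, a chromatin protein known to silence clustered protocadherins, had 4545 and 5993 counts (0.29, 0.24 to 0.35), and Dnmt1, the maintenance DNA methyltransferase, had 6242 and 9377 counts (0.48, 0.43 to 0.53). Ctcf, the factor that joins protocadherin promoters to enhancers, had 4140 and 4838 counts (0.12, 0.06 to 0.18). The de novo DNA methyltransferase Dnmt3a, also picked after its values were seen, went the other way, with 4467 and 3724 counts (-0.37, -0.43 to -0.31). None of these reached 2-fold.

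Of 26 tested signalling and processing partners, 1 was called higher, beside 2.18% of all genes, with 13 higher and 4 lower by adjusted p alone, beside 24.2% and 23.8%, and a median of 0.11. Cyfip2, a subunit of the WAVE complex that some protocadherin tails recruit, rose from 3 to 14 counts (log2 fold change 1.94, 0.27 to 4.56). It reached 10 summed counts only through the knockdown library. The most counted partners were Marcks, an actin-binding substrate of protein kinase C (17576 and 22905 counts, 0.28), and Rac1, a small GTPase (14362 and 16900 counts, 0.13). Both lay above 0 and under 2-fold.

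Of 9 tested genes of a list of classical, type II and some atypical Cdh genes (Cdh13 and Cdh17 are atypical), none was called, 4 were higher and 0 lower by adjusted p alone, beside 24.2% and 23.8% of all genes, and the median was 0.22. Cdh11, the mesenchymal type II cadherin, had 21928 and 27494 counts (0.22, 0.19 to 0.25), and Cdh2, N-cadherin, a partner of several delta protocadherins, had 11773 and 16240 counts (0.36, 0.32 to 0.39). The value of Cdh2 was near those of Pcdh18 and Pcdh19. Of 9 tested genes of a list of Fat, Dachsous and other large cadherins and related genes, 1 was called lower, beside 4.09% of all genes. By adjusted p alone 5 were higher and 1 lower, beside 24.2% and 23.8%, and the median was 0.18. Clstn3, calsyntenin 3, fell from 1309 to 491 counts (-1.52, -1.67 to -1.37), opposite in sign to Fat1 (21703 and 26445 counts, 0.18) and Fat4 (12623 and 15218 counts, 0.16), the most counted of the list. Of 8 tested catenins and junction proteins none was called, with 5 higher and 1 lower by adjusted p alone, beside 24.2% and 23.8% of all genes, and a median of 0.15, and the most counted were Ctnnb1 (39164 and 45599 counts, 0.11) and Vcl (38519 and 42025 counts, 0.02).

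**Figure D5:**
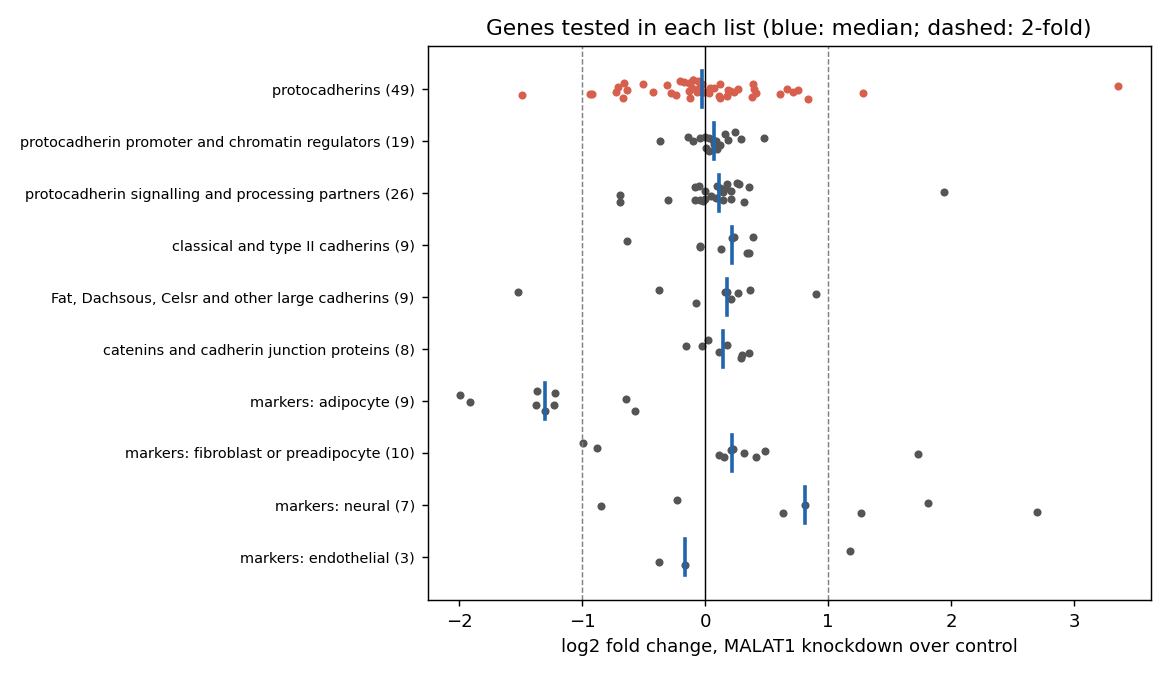
Log2 fold change (x axis, MALAT1 knockdown over control) of each tested gene of the protocadherins, 5 lists of related genes and 4 marker lists (y axis, number tested in parentheses), with blue bars for medians and dashed lines at 2-fold. The protocadherin median lies at -0.03, those of the 5 related lists between 0.07 and 0.22, and that of the adipocyte markers at -1.30.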

How the data were processed

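RNA-seq of rRNA-depleted total RNA (NEBNext Ultra Directional kit) from 1 control and 1 MALAT1-knockdown culture of C3H10 cells was analysed. The authors deposited a table of raw counts per gene symbol for both libraries. The submitters' processing notes name HISAT2 and GRCm38. The counting tool, annotation, strand setting and treatment of multimapping or duplicate reads are not given in the sources used here, so a gene and its antisense partner may not be told apart. The protocadherins and all lists were chosen with earlier results of these data known.

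Genes with 10 or more counts summed over both libraries were kept. Library sizes were scaled by TMM in edgeR 4.0.16 (R 4.3.3; factors 0.992 and 1.01). With 1 library per group no model could estimate a spread, so a gene's counts were set against the scaled sizes by the exact binomial test, two-sided (scipy 1.17.1; the smaller tail doubled), adjusted by Benjamini-Hochberg, and called at adjusted p under 0.05 and a 2-fold difference or more. Log2 fold changes of single genes carry a prior count of 0.5, and those of sums and plain fold ratios carry none. Their 95% Clopper-Pearson intervals cover counting error only. Groups, and Pcdh7, Pcdh18 and Pcdh19 with each other, were compared by Fisher's exact test over 10 pairs, chosen after the values were seen. The script was tested on simulated data. All Pcdh genes were named, with Malat1, called list genes (at most 3 a list), the 2 most counted of each list and called markers (at most 2 a cell type), and others where stated. Positions and promoters come from RefSeq (GRCm38.p6; 9 members matched a promoter window, of which 3 are printed) and exon lengths from GENCODE M21. DESeq2 1.42.0 supplied size factors as an alternative scaling.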

Additional observations from a re-analysis of the deposited data

How the results depend on the processing

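The 3 calls (2 higher, 1 lower) were the same genes with library totals, DESeq2 size factors, upper-quartile factors, a prior count of 2 or a filter of at least 1 summed count. Requiring 10 counts in each library left 2 calls (1 higher, 1 lower), since Pcdh15 was then not tested. A fold threshold of 1.5 gave 7 calls (5 higher, 2 lower), adding Pcdh7, Pcdhb5, Pcdhga4 and Pcdhga2, and no fold threshold gave 14 (12 higher, 2 lower). Counts divided by 4, for reads counted more than once, left 0 of the 49 members called by the exact binomial test (0 higher, 0 lower), beside 248 of all genes. The exact test of edgeR, given a biological coefficient of variation (BCV) of 0.1, left 2 calls (1 higher, 1 lower), with adjusted p of 0.0129 for Pcdh15, 0.0298 for Pcdh12, 0.176 for Pcdh20, 0.0557 for Pcdh7, 0.292 for Pcdh19 and 0.396 for Pcdh18, and BCVs of 0.2 and 0.4 left 0 (0 higher, 0 lower in each), beside 117 and 1 of all genes. By the same edgeR test at a BCV of 0.1, the adjusted p was 0.864 for Pcdhgc3, 0.515 for Pcdhac2 and 0.486 for Pcdhb20. By that test it was 0.261 for Pcdhga4, 0.160 for Pcdhga2 and 0.113 for Pcdhb5. The spread between cultures was not measured.

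Without the member with the most counts, the Pcdha sum turned to -0.43 and the Pcdhg sum went to 0.0554, with an interval that holds 0. The Pcdhb sum was 0.0662 with library totals, 0.0578 with DESeq2 size factors and 0.0536 with upper-quartile factors, each with an interval above 0. The Pcdha median was 0.40 with 10 counts in each library, where Pcdhac2 is the only gene left. These scalings moved the median of all genes between -0.0031 and 0.0190. No paired analysis was possible because each group has 1 library, and for the same reason no replicate could be left out.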
